A study of Homo sapiens with 6 samples.

Results

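Reelin and the proteins that receive and relay its signal were followed at the RNA level in differentiating neuroblastoma cells after knockdown of the long noncoding RNA CyCoNP. The group comprised 10 genes of the 60676 in the deposited tables, matched by Ensembl identifier. They were RELN itself, the receptors VLDLR and LRP8, the adaptors DAB1, CRK and CRKL, the LIS1 gene PAFAH1B1 with its partner NDEL1, and the kinase CDK5 with its activator CDK5R1. The pathway was picked because RELN was an abundant transcript that was lower in these knockdown libraries, so the values of RELN are given as a description without a test. Its 9 partners were taken as genes known to act in the pathway.

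Reelin is a large secreted glycoprotein that guides the positioning of migrating neurons and, later, dendrite growth and synaptic plasticity. It binds the lipoprotein receptors VLDLR and LRP8 (ApoER2), which leads SRC-family kinases to phosphorylate the adaptor DAB1. Phosphorylated DAB1 recruits CRK and CRKL and connects the receptors to PI3 kinase signalling and to the cytoskeleton. LIS1 with NDEL1 regulates the motor dynein, and CDK5 with its activator p35 acts alongside reelin in cortical layering.

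SK-N-BE cells, an established human neuroblastoma line used as a model of neurogenesis, were kept for 1.5 days in differentiation medium with 10 μM retinoic acid. By lipofection, cells of the control group received a siRNA of scrambled sequence (si-SCR) and those of the other group a pool directed at the second exon of the CyCoNP transcript (si-CyCoNP). Small interfering RNAs (siRNAs) are short RNAs that lead to the degradation of a matching transcript. RNA sequencing gave 3 libraries in each group from this single line. The labels do not say whether replicates came from separate cultures, so p-values measure the spread between these samples, which may be technical.

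Libraries held 3762009 to 4799407 counted fragments, with no difference between the groups beyond the spread of replicates (exact permutation test, two-sided, p = 0.9, the smallest possible being 0.1). Levels are given as FPKM (fragments scaled to gene length and library size), which can be compared between genes. A gene was tested if its mean FPKM reached 1 in either group, which 13966 genes did, and it passed at an adjusted p under 0.05 in edgeR's quasi-likelihood test with Benjamini-Hochberg adjustment over all of them. The targeted gene, LINC02381 (CyCoNP), fell from 14.4 ± 1.31 FPKM (SD, n = 3) to 1.10 ± 0.498 (SD, n = 3), a log2 fold change of -3.78 in si-CyCoNP against si-SCR. Of 10 markers of the neuroblastoma line all 10 were expressed, with a summed level of 2301 to 2600 FPKM in si-SCR and 2009 to 2164 in si-CyCoNP. In this list 7 genes passed lower and MYCN passed higher, at a log2 fold change of 0.84. This share, 80%, stands beside 28.4% of all tested genes that passed. Of the 7 lower genes, 3 passed with a log2 fold change under -1, the lowest at -1.24, as 2.98% of all tested genes did. The summed level of 6 Schwann cell and glial markers was 1.52 to 3.37 FPKM in si-SCR and 8.78 to 14.7 in si-CyCoNP. Only 1 of these 6 genes reached the minimum level, and SOX10, the defining transcription factor of that lineage, had 0 counts in every library. The summed level of 6 mesenchymal markers was 53.3 to 71.1 FPKM in si-SCR and 65.1 to 73.3 in si-CyCoNP, with PRRX1 and COL1A2 at 0 counts. In that list COL1A1, a collagen gene, rose from 0.450 ± 0.108 FPKM (SD, n = 3) to 1.50 ± 0.230 (SD, n = 3), a log2 fold change of 1.68. It entered the test only through si-CyCoNP, where it reached the minimum level, so this is a description. The other 3 tested genes of that list did not pass. No blood or endothelial marker reached the minimum level. The part of these marker levels in the results for reelin genes was not tested.

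RELN was the most abundant of the 10 genes in control cells and the gene with the lowest log2 fold change among them. RELN (ENSG00000189056) lies on the minus strand of chromosome 7 at chr7:103471381-103989658 of GRCh38 and has 65 exons in its canonical transcript. Its level was 77.4, 68.7 and 65.3 FPKM in the si-SCR libraries and 24.9, 24.6 and 26.6 FPKM in the si-CyCoNP libraries. The groups were far apart, and the si-CyCoNP libraries lay closer to each other than the si-SCR libraries did. These levels rest on 4249, 3304 and 3994 counts in si-SCR and on 1529, 1335 and 1408 counts in si-CyCoNP. On the log2 scale RELN stood at -1.54 against the control (standard error, SE, 0.084), which leaves 34.3% of the control level. In bulk RNA, fewer cells that express a gene and less RNA per cell cannot be told apart.

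By mean FPKM RELN ranked 465 among the 13966 tested genes in si-SCR and 1590 in si-CyCoNP. It took between 0.0835% and 0.0989% of all counts in the si-SCR libraries and between 0.0314% and 0.0340% in the si-CyCoNP libraries. Ordered from the lowest log2 fold change, RELN stood at place 432. These ranks and counts describe the values by which RELN was chosen.

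**Figure D1:**
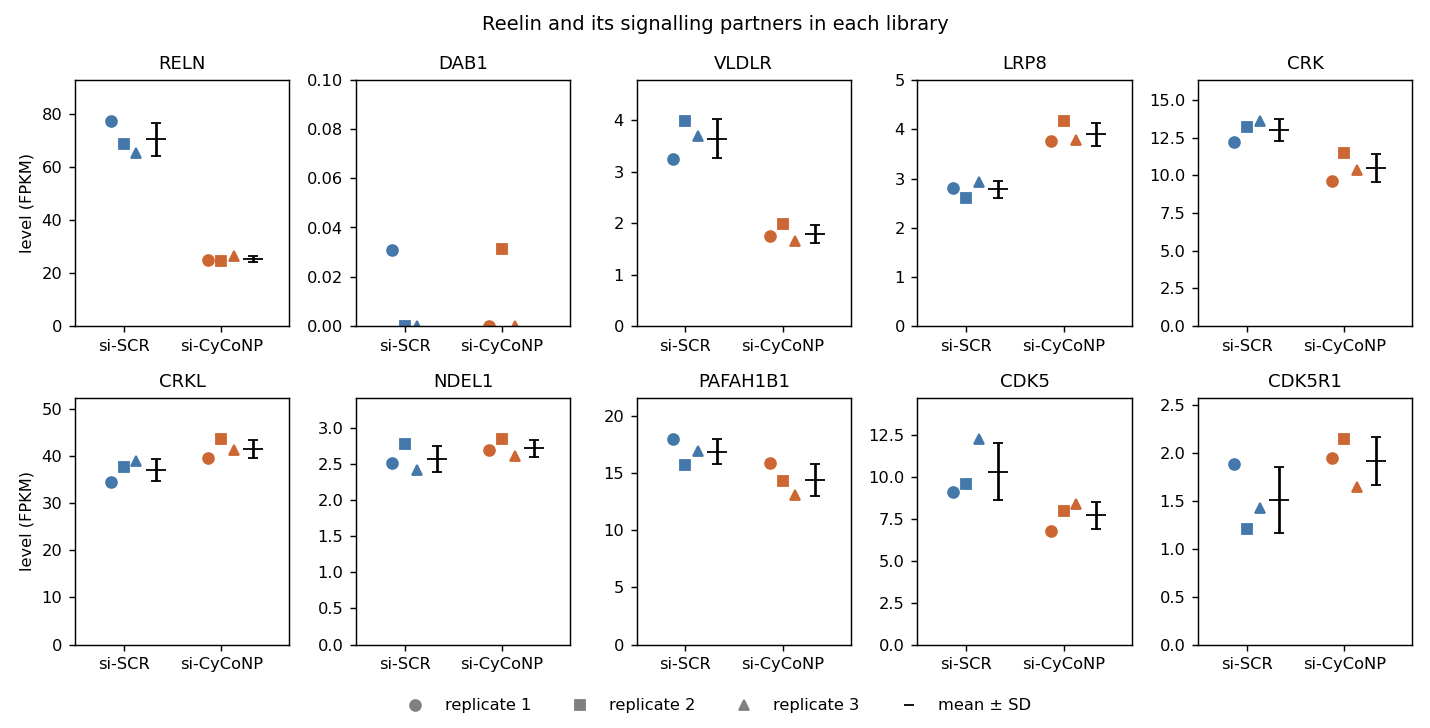
Level in FPKM (vertical axes, each starting at 0) of the 10 genes in the 3 si-SCR and 3 si-CyCoNP libraries, with 1 symbol per replicate and, for tested genes, the mean ± SD in black. RELN falls from 65.3 to 77.4 FPKM to 24.6 to 26.6 FPKM, VLDLR and LRP8 move in opposite directions, and DAB1 has a single count in each of 2 libraries.

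The promoter of RELN is rich in CpG dinucleotides and is known as a target of DNA methylation. It is shown because the regulators listed further on were taken as genes reported there. The 250 bases before the start of the gene (RefSeq, GRCh38.p14, chr7:103989659-103989908, minus strand) are printed 5′ to 3′, with capitals for the GC box GGGCGG bound by SP1 and SP3 and for the E-box CACGTG, searched on both strands with overlapping matches counted.
RELN promoter: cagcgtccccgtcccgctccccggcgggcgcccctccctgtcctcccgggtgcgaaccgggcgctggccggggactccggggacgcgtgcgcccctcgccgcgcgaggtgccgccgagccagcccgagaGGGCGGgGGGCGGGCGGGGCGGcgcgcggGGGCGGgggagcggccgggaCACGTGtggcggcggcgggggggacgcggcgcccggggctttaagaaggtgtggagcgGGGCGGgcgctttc

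This window held 43 CpG dinucleotides and was 83.2% G or C. The median over 35116 promoter windows of 250 bases was 11 CpG dinucleotides and 58% G or C, and 98.98% of windows held fewer CpG dinucleotides than that of RELN. The GC box matched at 6 places, and 42.6% of all windows held at least 1 match. CACGTG matched once, and 6.34% of windows held it. The core motif of retinoic acid receptor sites, AGGTCA, was not among the letters of this window and occurred in 12.1% of windows. A match is a description of the letters and not evidence of binding.

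The reelin receptors moved in opposite directions. VLDLR, the receptor of very low density lipoprotein, lies at chr9:2621182-2660056 on the plus strand. Its level was 3.25, 3.99 and 3.70 FPKM in si-SCR and 1.75, 1.98 and 1.64 FPKM in si-CyCoNP. All si-CyCoNP libraries were below all si-SCR libraries. VLDLR fell by 1.09 on the log2 scale (SE 0.15, edgeR adjusted p = 2.7e-06), so that 47.1% of the control level remained. The antisense gene VLDLR-AS1 had between 2 and 19 counts per library and was not tested.

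LRP8, which encodes ApoER2, lies at chr1:53242364-53328469 on the minus strand. Its level was 2.81, 2.59 and 2.93 FPKM in si-SCR and 3.76, 4.18 and 3.78 FPKM in si-CyCoNP. Here every si-CyCoNP library was above every si-SCR library. LRP8 rose by a log2 fold change of 0.42 (SE 0.103, edgeR adjusted p = 0.00271). The ratio of VLDLR to LRP8 in FPKM was 1.16, 1.54 and 1.26 in the control libraries, against 0.466, 0.474 and 0.435 after knockdown. The ratio was above 1 in every control library and below 1 in every knockdown library. Its place relative to 1 depends on the counted lengths, 9389 bases for VLDLR and 19668 for LRP8, since in counts LRP8 exceeded VLDLR in every library, from 192 to 276 against 131 to 166 in si-SCR. The change of the ratio between the groups does not depend on these lengths. The log2 ratio changed from 0.39 ± 0.21 (SD, n = 3) to -1.13 ± 0.065 (SD, n = 3), a difference of -1.51, and the exact permutation test (two-sided) gave p = 0.1, the smallest value that 3 against 3 libraries allow.

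**Figure D2:**
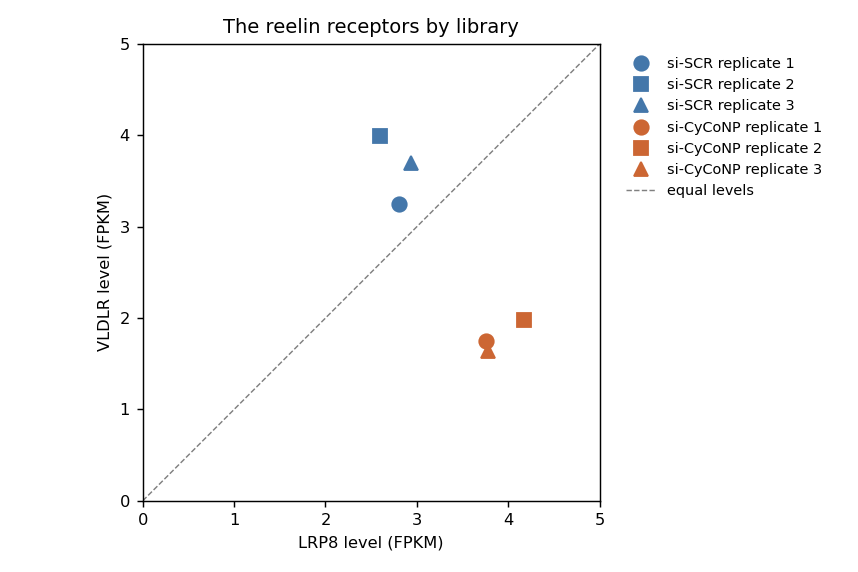
VLDLR level (vertical axis, FPKM) against LRP8 level (horizontal axis, FPKM) in the 6 libraries, with a dashed line where the levels are equal. The si-SCR libraries lie above the line, with ratios of 1.16 to 1.54, and the si-CyCoNP libraries below it, with ratios of 0.435 to 0.474.

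DAB1, the adaptor through which the receptors signal, was at the edge of detection. It had 1, 0 and 0 counts in si-SCR and 0, 1 and 0 counts in si-CyCoNP. Both groups lay under the floor of 3 counts, so neither a fold change nor a difference could be measured at this depth. RELN and its receptors were therefore read in cells with almost no DAB1 transcript in these tables.

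CRK, an SH2 and SH3 adaptor that binds phosphorylated DAB1, had 12.2, 13.2 and 13.6 FPKM in si-SCR and 9.64, 11.5 and 10.4 FPKM in si-CyCoNP. The groups did not overlap, and the log2 fold change was -0.38 (SE 0.115, edgeR adjusted p = 0.0135). CRK no longer passed in edgeR without the first si-CyCoNP library (adjusted p = 0.0804). It did not pass either with limma on log2 FPKM with a pseudocount of 0.1 (adjusted p = 0.0583) or 1 (adjusted p = 0.0580). CRKL, the close relative that binds the same sites, was more abundant than CRK, at 37.1 ± 2.37 FPKM (SD, n = 3). It had 34.5, 37.8 and 39.1 FPKM in si-SCR and 39.6, 43.6 and 41.4 FPKM in si-CyCoNP. These did not overlap, but CRKL did not pass, at a log2 fold change of 0.10 whose 95% interval ran from -0.07 to 0.26 (edgeR adjusted p = 0.423).

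The LIS1 branch showed no large difference. PAFAH1B1, which encodes LIS1, had 17.9, 15.7 and 16.9 FPKM in si-SCR and 15.8, 14.3 and 13.1 FPKM in si-CyCoNP. The groups touched, since the highest knockdown library exceeded the lowest control library. PAFAH1B1 was lower, with -0.30 on the log2 scale (SE 0.093, edgeR adjusted p = 0.0175). It did not pass in 6 of 15 alternative fits, among them the edgeR fits without the second or the third si-CyCoNP library (adjusted p = 0.0657 and 0.107) or the first si-SCR library (adjusted p = 0.0804). NDEL1, the LIS1 partner, had 2.52, 2.77 and 2.42 FPKM in si-SCR and 2.7, 2.84 and 2.61 FPKM in si-CyCoNP. Its groups overlapped, and its log2 fold change of 0.02 had a 95% interval from -0.29 to 0.32 (edgeR adjusted p = 0.957).

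CDK5, a cyclin-dependent kinase of neurons, had 9.10, 9.58 and 12.3 FPKM in si-SCR and 6.79, 7.97 and 8.38 FPKM in si-CyCoNP. The groups did not overlap, but the third si-SCR library stood well above the other control libraries. CDK5 was lower at a log2 fold change of -0.49 (SE 0.167, edgeR adjusted p = 0.0264). It did not pass in 7 of 15 alternative fits, among them DESeq2 (adjusted p = 0.0843). The others included the edgeR fits without the third si-SCR library (adjusted p = 0.142) or the first or second si-CyCoNP library (adjusted p = 0.121 and 0.0544). CDK5R1, which encodes the activator p35, had 1.89, 1.21 and 1.43 FPKM in si-SCR and 1.95, 2.15 and 1.65 FPKM in si-CyCoNP. These overlapped and rested on 18 to 37 counts per library, and the 95% interval of the log2 fold change was wide, from -0.26 to 0.80 (edgeR adjusted p = 0.502).

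Of the 10 genes, 9 were tested, and each of these reached the minimum level in both groups. Among the 8 tested partners 5 passed, 4 of them lower and 1 higher, beside 28.4% of all tested genes that passed. Passing genes were split evenly over all genes, with 14.2% higher and 14.2% lower. With counts scaled to library totals alone the split over all genes was 2465 higher and 1574 lower, in place of 1982 and 1990. VLDLR was the only partner called, meaning that it passed with a log2 fold change beyond -1 or 1, beside 5.26% of all tested genes. It was called lower, as 2.98% of tested genes were, and none was called higher, as 2.28% were. FPKM groups did not overlap for 5 of the 8 partners, beside 40.3% of all tested genes. The median log2 fold change was -0.14 over the 8 partners and 0.01 over all tested genes.

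**Figure D3:**
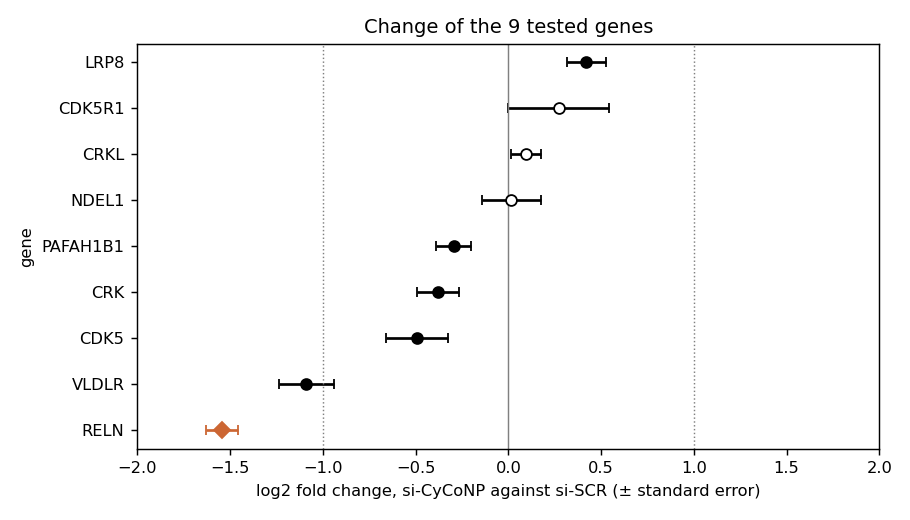
Log2 fold change in si-CyCoNP against si-SCR (horizontal axis, bars show ± the standard error) of the 9 tested genes, ordered by value. Filled circles passed at an adjusted p under 0.05, open circles did not, the diamond is RELN, which was chosen by this value, and dotted lines mark log2 fold changes of -1 and 1. RELN at -1.54 and VLDLR at -1.09 lie beyond the lower line, and LRP8 at 0.42 is the only filled circle above 0.

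The order of the levels changed with the knockdown. In si-SCR it ran RELN, CRKL, PAFAH1B1, CRK, CDK5, VLDLR, LRP8, NDEL1 and CDK5R1. Among neighbours in this order the highest CDK5 library (12.3 FPKM) exceeded the lowest CRK library (12.2 FPKM), and the highest NDEL1 library (2.77 FPKM) exceeded the lowest LRP8 library (2.59 FPKM), while the ranges of the other neighbours were apart. In si-CyCoNP it ran CRKL, RELN, PAFAH1B1, CRK, CDK5, LRP8, NDEL1, CDK5R1 and VLDLR. CRKL at 41.5 ± 2.0 FPKM (SD, n = 3) stood above RELN at 25.4 ± 1.06 (SD, n = 3). This change of place rests on the decrease by which RELN was chosen, so it is a description. VLDLR moved to the lowest place of the tested genes, and its range of 1.64 to 1.98 FPKM overlapped that of CDK5R1, the only neighbours in this order to do so.

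Downstream and around DAB1, a list of 30 kinases, adaptors and turnover factors of the pathway had 28 tested genes, of which 4 were higher and 4 lower, with a median log2 fold change of -0.03. This share, 28.6%, is near the 28.4% of all tested genes that passed. SRC and FYN, the kinases that phosphorylate DAB1, did not pass, at log2 fold changes of 0.05 and 0.01 (edgeR adjusted p = 0.768 and 0.950). LIMK1, a kinase that inactivates cofilin, rose from 11.9 ± 0.417 FPKM (SD, n = 3) to 24.6 ± 1.2 (SD, n = 3), or 0.98 on the log2 scale (edgeR adjusted p = 2.16e-09). RAPGEF1, an exchange factor that CRK and CRKL carry to RAP1, rose by a log2 fold change of 0.68, and AKT1, a kinase downstream of PI3 kinase, by 0.58. DAB2IP, a GTPase-activating protein that binds DAB proteins, fell by 0.73 on the log2 scale, and the small GTPase CDC42 and the PI3 kinase subunit PIK3CA fell by 0.40 and 0.38.

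Among 30 other members of the lipoprotein receptor family, ligands of the receptors and factors of receptor turnover, 19 were tested, with 4 higher, 4 lower and a median log2 fold change of -0.02, so that 42.1% passed beside 28.4% of all tested genes. LRP3 rose from 10.1 ± 1.99 FPKM (SD, n = 3) to 16.7 ± 0.754 (SD, n = 3), or 0.65 on the log2 scale (edgeR adjusted p = 6.99e-05), and LRP6, a WNT co-receptor, rose by 0.33. CLU, whose product clusterin is a ligand of VLDLR and LRP8, fell by 0.80 on the log2 scale (SE 0.115, edgeR adjusted p = 4.86e-06), and LRP10 and APLP2, a relative of the amyloid precursor protein, fell by 0.59 and 0.33. APOE, a further ligand, had 6 counts in all libraries together. MYLIP (IDOL), which targets these receptors for degradation, did not pass, at 0.01 on the log2 scale (edgeR adjusted p = 0.982). It rested on 8 to 27 counts per library, and its 95% interval was wide, from -0.75 to 0.78.

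Reelin is cut after secretion, and 6 of 14 proteases of reelin, their relatives and inhibitors were tested, of which 2 were higher and 3 lower, beside 14.2% of all tested genes in each direction. FURIN, a proprotein convertase, fell by 0.59 on the log2 scale, and ADAMTS3, a protease that inactivates reelin by cutting it near its N terminus, fell by 0.50 (edgeR adjusted p = 0.00276). ADAMTS3 had 13.7, 11.9 and 9.37 FPKM in si-SCR and 8.50, 8.36 and 9.12 FPKM in si-CyCoNP, so that the third si-SCR library came close to the knockdown libraries. ADAMTS2, a relative that also cuts reelin, fell by 1.02 and reached the minimum level only in si-SCR, at 1.38 ± 0.323 FPKM (SD, n = 3). It is among the 3 lower genes but entered the test only through that group. PLAT, tissue plasminogen activator, rose by a log2 fold change of 0.51, and PCSK7, a further convertase, by 0.32. With limma on log2 FPKM 1 gene of this list passed in place of 5. The median log2 fold change was -0.09.

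Among 37 genes of dynein, LIS1 and cortical migration, 34 were tested, with 8 higher, 11 lower and a median log2 fold change of -0.13, so that 55.9% passed beside 28.4% of all tested genes. BICD2, a dynein cargo adaptor, rose from 7.57 ± 1.72 FPKM (SD, n = 3) to 18.4 ± 0.584 (SD, n = 3), or 1.21 on the log2 scale (edgeR adjusted p = 9.37e-09). The dynein light chain DYNLL2 rose by 0.73, and NUDC and NUDCD3, chaperone cofactors of the dynein pathway, rose by 0.62 and 0.84. PAFAH1B2, a catalytic subunit of the enzyme that LIS1 regulates, rose by 0.63, and the light chain DYNLT1 fell by 0.66 on the log2 scale.

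Among 23 activators, inhibitors and substrates of CDK5, 19 were tested, with 3 higher, 7 lower and a median log2 fold change of -0.18, so that 52.6% passed beside 28.4% of all tested genes. CDK5R2, which encodes p39, the other activator, was far more abundant than CDK5R1 in these cells. It had 42.7, 45.9 and 43.9 FPKM in si-SCR and 27.1, 32.2 and 26.0 FPKM in si-CyCoNP, without overlap. CDK5R2 fell by 0.70 on the log2 scale (SE 0.099, edgeR adjusted p = 3.61e-06). The CDK5 substrates DPYSL3 (CRMP4) and STMN1 (stathmin), which act on the cytoskeleton, fell by 0.64 and 0.44, and DNM1, a dynamin of synaptic vesicle recycling, rose by a log2 fold change of 1.28. PTK2, the focal adhesion kinase, and CABLES2 rose by 0.58 and 0.98. CABLES1, the relative of CABLES2, was the only gene of this list called lower, at a log2 fold change of -1.53. It went from 1.15 ± 0.230 FPKM (SD, n = 3) to 0.410 ± 0.013 (SD, n = 3) after knockdown. It is among the 7 lower genes and the 52.6% but entered the test only through si-SCR, where it reached the minimum level. Its change is therefore a description.

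A list of 19 genes held enzymes of DNA methylation and histone deacetylation and transcription factors reported at the RELN promoter. Whether they act on RELN in these cells was not tested. In the list 17 genes were tested, with 4 higher, 2 lower and a median log2 fold change of 0.12. Thus 35.3% passed, beside 28.4% of all tested genes. RARB and RARG, retinoic acid receptors, rose by log2 fold changes of 1.14 and 0.68, and RARB went from 1.88 ± 0.316 FPKM (SD, n = 3) to 4.36 ± 0.700 (SD, n = 3, edgeR adjusted p = 2.46e-04). TET3, which oxidises methylated cytosine, rose by 0.59 and the deacetylase HDAC1 by 0.65. SP3 fell by 0.38 on the log2 scale and DNMT3A, a DNA methyltransferase, by 0.32, while SP1 did not pass, at 0.16 (edgeR adjusted p = 0.199).

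**Figure D4:**
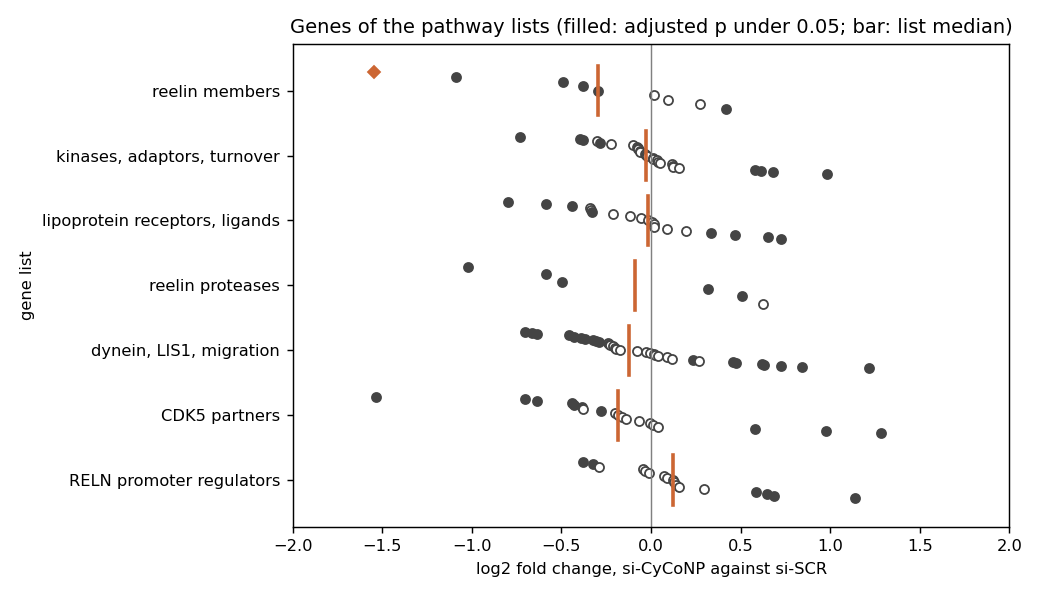
Log2 fold change in si-CyCoNP against si-SCR (horizontal axis) of the tested genes of the reelin group and of 6 lists of pathway genes, 1 symbol per gene, with the list median as an orange bar. Filled circles passed at an adjusted p under 0.05, open circles did not, and the diamond is RELN. The median of the reelin genes, -0.30, includes RELN and is -0.14 over the 8 partners, and the medians of the other lists lie between -0.18 for the CDK5 partners and 0.12 for the regulators of the RELN promoter.

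Cajal-Retzius cells are the main source of reelin in the developing cortex. Of 15 markers of these cells only CACNA2D2 and EBF3 reached the minimum level, and 7 had 0 counts in every library, CALB2, the gene of calretinin, and LHX5 among them. CACNA2D2, a calcium channel subunit, fell from 7.85 ± 0.982 FPKM (SD, n = 3) to 3.07 ± 0.749 (SD, n = 3), or -1.41 on the log2 scale (edgeR adjusted p = 7.66e-08). EBF3, the other tested marker, did not pass, at -0.09. RELN was thus expressed here with 13 of 15 markers of its best known cell type under the minimum level.

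The microRNA miR-4492, which the study examined alongside CyCoNP, was compared with the 3′UTRs of the 10 genes to show which of these transcripts carry a match to its seed. The mature sequence (RefSeq, GRCh38.p14, chr11:118910765-118910781, plus strand) is printed with its seed, bases 2 to 8, in capitals, and the sites, on GRCh38 with the match to the seed (CCAGCCC) in capitals, come from the canonical transcripts of GENCODE.
hsa-miR-4492: gGGGCUGGgcgcgcgcc
VLDLR 3′UTR, chr9:2655024-2655052, plus strand: aatgcaagttcCCAGCCCcatcccagacc
NDEL1 3′UTR, chr17:8467092-8467120, plus strand: ggtgcctgggcCCAGCCCcgtgcccctcc
NDEL1 3′UTR, chr17:8467171-8467199, plus strand: ctgggccctgcCCAGCCCcggaactctgc

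The 3′UTR of RELN, 1023 bases long, held no match, and neither did those of the other 7 genes. The match occurred at least once in 23.4% of 10484 tested genes with an annotated 3′UTR. It occurred in 27.0% of 378 genes called lower, in 32.8% of 235 called higher and in 23.0% of 9871 others. Of the genes that hold it here, VLDLR was lower and NDEL1 did not pass. Their 3′UTRs were 6188 and 1140 bases long, beside a median of 1397.5 over those tested genes. A longer 3′UTR has more places for a match, and these shares do not take length into account.

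VLDLR and LRP8 kept their direction and an adjusted p under 0.05 in all 15 alternative fits, with ranges of -1.16 to -0.73 and 0.38 to 0.49 on the log2 scale. For RELN, whose decrease was the reason for its choice, the values of these fits ran from -1.62 to -1.44. CRK, PAFAH1B1 and CDK5 kept their direction but crossed the threshold in 3, 6 and 7 of these fits.

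**Figure D5:**
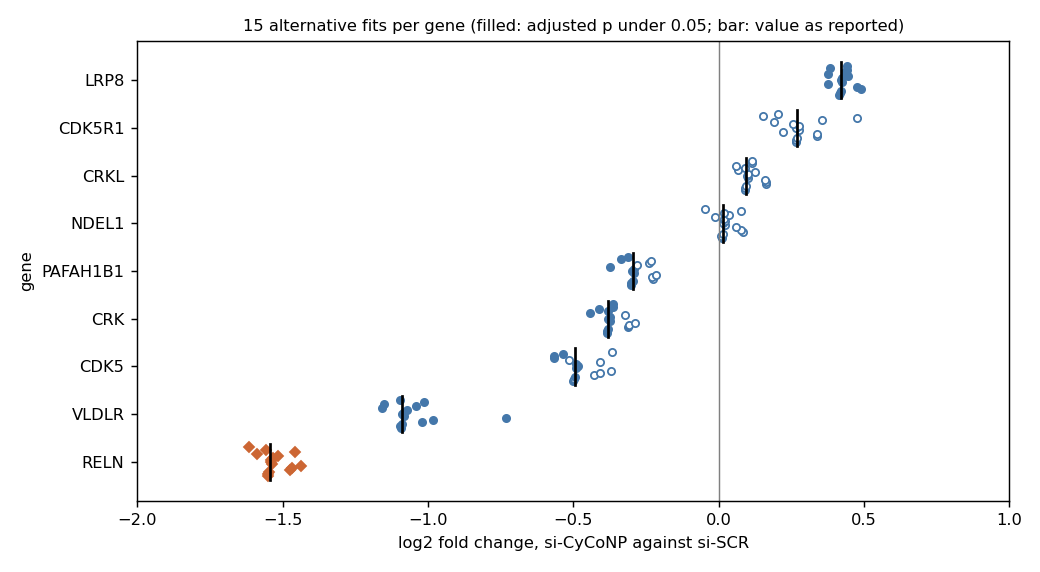
Log2 fold change in si-CyCoNP against si-SCR (horizontal axis) of the 9 tested genes in 15 alternative fits, 1 symbol per fit, with the value as reported as a black bar. Filled circles have an adjusted p under 0.05, open circles do not, and diamonds are RELN. VLDLR and LRP8 are filled throughout, and CRK, PAFAH1B1 and CDK5 are mixed.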

How the data were processed

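RNA of 3 si-SCR and 3 si-CyCoNP samples was prepared by the authors as stranded libraries after ribosomal RNA depletion. Per the submitters' processing notes and the methods of the study, reads were trimmed with Trimmomatic 0.39 and cutadapt 3.2, ribosomal reads were removed with Bowtie2 2.4.2, and the rest were aligned to GRCh38 with STAR 2.7.7a, which drops fragments with several positions from its counts. The deposited count table held the authors' raw counts per Ensembl gene, and the deposited FPKM table scaled the same counts by gene length and library size. The gene length implied by count and FPKM differed between libraries by more than 1 in 1000 for 0 of 22586 genes counted in 2 or more of them. Symbols were found for 60357 of 60676 genes.

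Counts were scaled with TMM and compared by group in edgeR 4.0.16 (R 4.3.3) by quasi-likelihood testing, with Benjamini-Hochberg adjustment over all 13966 genes that reached a mean of 1 FPKM in si-SCR or si-CyCoNP. The standard error is the log2 fold change divided by the root of the F statistic. The procedure was tested on simulated data. Alternatives were DESeq2 1.42.0, other scalings and filters, limma 3.58.1 on log2(FPKM + 1) and log2(FPKM + 0.1), a replicate block and leaving out each library. The total count per library was 3762009 to 4799407, and a group at or under 3 counts was taken as at the floor. Gene positions are those of GENCODE v44 on GRCh38, which may differ from the gene models used for counting.

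The members and gene lists were chosen with earlier results of these data known. Named were the 10 members, the targeted gene, up to 6 genes with the smallest p per pathway list, tested genes within 1 Mb of RELN, and the 5 genes whose profile was nearest to that of RELN, and the values of 3 genes that these rules or the marker lists name are not reported here. Members and list genes named although they did not pass were chosen for their role after their values were seen, as were COL1A1 and CABLES1.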

Additional observations from a re-analysis of the deposited data

How the results depend on the processing

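Over all genes, the count past the test was 1982 higher and 1990 lower. With a log2 fold change beyond 1 also required it was 319 and 416, and lower genes numbered 1113 and 1118 with limma on log2(FPKM + 0.1) and log2(FPKM + 1). Of the 9 tested reelin genes 6 passed (28.4% of all tested genes did), and 3 did with limma on either FPKM scale and 2 with the fold requirement (5.26% of all tested genes). Each of these counts includes RELN, which was chosen for its decrease, so 5, 2 and 1 of them were partners. In the lists, the fold requirement left 0 genes of the kinases, adaptors and turnover factors and 0 of the lipoprotein receptor family. It left 1 of the proteases, 1 of dynein and migration, 2 of CDK5 and 1 of the promoter regulators. That protease, ADAMTS2, and CABLES1, 1 of the 2 CDK5 genes, entered the test only through si-SCR, so both are descriptions. With limma 1 protease was left on either FPKM scale. NDEL1, at 0.02, changed sign, and its values without 1 library ran from -0.048 (without si-SCR replicate 3) to 0.078, with -0.011 without si-CyCoNP replicate 2. Without 1 library, 1611 to 2174 genes were higher, 1617 to 2223 were lower and 4 to 6 reelin genes passed, RELN included, and the difference of the log2 ratio of VLDLR to LRP8 was -1.60 to -1.40. Library totals alone in place of TMM moved the median log2 fold change over all genes by 0.07. Same-numbered libraries of the groups deviated together with correlations of 0.0907, 0.0727 and 0.108, and each library correlated best with its own number, but the labels give these numbers no shared origin. With the replicate block 2403 genes were higher, 2368 lower and 6 reelin genes passed. At this depth DAB1 was at the floor, and CDK5R1, with 18 to 37 counts per library, had a wide interval. VLDLR-AS1, with 2 to 19 counts per library, was not tested.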

Other observations

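Around RELN, 12 tested protein-coding genes lay within 1 Mb, of which 2 were higher, 5 were lower and 5 did not pass, beside 14.2% of all tested genes higher and 14.2% lower. On the side toward the end of the gene, PSMC2, a subunit of the proteasome, and DNAJC2, a ribosome-associated chaperone, rose by log2 fold changes of 0.61 and 0.72 (edgeR adjusted p = 2.61e-06 and 1.00e-06). PSMC2 lay 101 kb from RELN. PMPCB, a mitochondrial processing peptidase, ARMC10 and NAPEPLD, an enzyme of anandamide synthesis, fell by 0.26, 0.41 and 0.44 on the log2 scale (edgeR adjusted p = 0.0425, 0.0418 and 0.0471). LRRC17 fell by 1.68 (edgeR adjusted p = 1.78e-05), from 4.11 ± 0.155 FPKM (SD, n = 3) to 1.33 ± 0.272 (SD, n = 3), and lies 526 kb away. FBXL13, which overlaps LRRC17 on the opposite strand, fell by 1.99 on 3 to 22 counts per library. It is among the 5 lower genes but entered the test only through si-SCR, where it reached the minimum level, so its change is a description. The nearest tested gene on the other side, ORC5, a subunit of the origin recognition complex at 137 kb, did not pass, at 0.06 on the log2 scale (edgeR adjusted p = 0.798), and neither did KMT2E at -0.08 (edgeR adjusted p = 0.539). LRWD1, POLR2J and FAM185A did not pass either, with log2 fold changes of 0.05, -0.06 and 0.07.

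The tested genes with a profile most like that of RELN were found by the Euclidean distance between log2 CPM profiles over the 6 libraries, each centred on its own mean. They included ZMAT3 at a distance of 0.188, TPD52 at 0.200, GPR137C at 0.228 and BMPR2, a receptor of bone morphogenetic proteins, at 0.235. BMPR2 had 19.2, 16.8 and 16.9 FPKM in si-SCR and 6.78, 7.28 and 6.67 FPKM in si-CyCoNP, and ZMAT3 had 8.20, 7.81 and 7.55 FPKM in si-SCR and 2.90, 3.06 and 3.2 FPKM in si-CyCoNP. All 4 were called lower, with log2 fold changes of -1.43 for ZMAT3, -1.64 for TPD52, -1.56 for GPR137C and -1.42 for BMPR2. Since the likeness was measured on these same libraries, it is a description and not a test.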
